A study of Homo sapiens with 6 samples.

Results

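Regions of H3K27ac at HK2, PFKP, PKM, LDHA and SLC16A3, which encode 4 enzymes of glucose breakdown to lactate and a lactate exporter, were compared across 3 human multiple myeloma cell lines treated with a BET bromodomain inhibitor. The 5 genes were chosen with earlier results of these data known, from the same values that are described here, and were found by symbol. Each was given every listed region that overlapped its body or lay nearest to its boundary. This gave 1 region per gene, 5 of the 838 regions and 5 of the 1029 genes with a region in the authors' deposited table. All 5 regions overlapped their gene, and none overlapped another protein coding or lncRNA gene. The lines KMS-11, KMS-12 and RPMI8226 were established from malignant plasma cells, and all are labelled wild type. Each line gave 1 sample grown with JQ1 at 1 µM for 72 h and 1 sample grown with DMSO, the solvent, for 6 samples in all. H3K27ac, an acetyl mark on histone H3 found at active promoters and enhancers, was measured by chromatin immunoprecipitation and sequencing with a Diagenode antibody. JQ1 occupies the acetyl-lysine pocket of the BET proteins, which read acetylated histones and promote transcription.

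The table holds 1 log fold change per line and region. It was read as log2 because the submitters' processing notes name DESeq2, without a role, and DESeq2 reports that scale. The direction, JQ1 over DMSO, was assumed, since the numerator is not written. Every statement of lower H3K27ac in JQ1 samples depends on this assumption. All 838 regions had 3 values below 0, and in all 838 the number of lines counted by the authors matched the number of values below -0.5. Direction was therefore fixed by the choice of regions, the members were chosen from the same values, and no line had a replicate. The values are given as a description, with no error and no test. The depth behind each value is unknown, since no counts are given, and transcript levels were not analysed here. The table holds no level in any sample, so the labelled cell type could not be checked against plasma cell markers.

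Glycolysis splits glucose into pyruvate in the cytosol. Hexokinase traps glucose by phosphorylation, phosphofructokinase makes the committed step, and pyruvate kinase makes pyruvate and ATP at the end of the path. Lactate dehydrogenase turns pyruvate into lactate and restores NAD+, and monocarboxylate transporters carry lactate and protons out of the cell. Proliferating tumour cells, myeloma among them, often run this path at a high rate even with oxygen present. HK2, LDHA and SLC16A3 are among the textbook targets of the hypoxia factor HIF-1, while MYC also acts on LDHA and HK2. These are examples, and they do not mean that PFKP or PKM lacks such regulation.

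Promoter sequences are shown because each of the 5 regions lay on or next to an annotated transcription start of its gene. The windows run from 250 bases before to 50 after a start and come from RefSeq, build GRCh38.p14. All 5 genes matched, with 14 windows in all. For each gene the window with the most bases inside its region is shown, and where several lay wholly inside, the one with the most matches to ACGTG. Capitals mark ACGTG on either strand, a form of the core of the hypoxia-response element. No other form of that core was searched, so the counts below cover ACGTG alone. The E-box CACGTG, the site of MYC and its partners, contains ACGTG on both strands and so stands in capitals whole.
HK2, chr2:74834920-74835219, plus strand: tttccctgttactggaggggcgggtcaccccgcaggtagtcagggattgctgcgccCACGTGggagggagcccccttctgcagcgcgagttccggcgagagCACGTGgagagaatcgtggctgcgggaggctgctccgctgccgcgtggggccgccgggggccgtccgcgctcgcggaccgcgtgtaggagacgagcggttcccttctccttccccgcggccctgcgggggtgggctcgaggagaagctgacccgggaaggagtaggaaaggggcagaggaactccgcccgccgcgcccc
PFKP, chr10:3068939-3069238, plus strand: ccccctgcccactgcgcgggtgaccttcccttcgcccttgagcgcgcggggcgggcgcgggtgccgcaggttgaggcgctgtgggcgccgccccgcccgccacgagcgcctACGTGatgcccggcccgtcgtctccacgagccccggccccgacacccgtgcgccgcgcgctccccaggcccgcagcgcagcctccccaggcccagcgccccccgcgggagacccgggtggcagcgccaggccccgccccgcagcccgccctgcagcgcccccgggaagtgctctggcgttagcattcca
PKM, chr15:72231141-72231440, minus strand: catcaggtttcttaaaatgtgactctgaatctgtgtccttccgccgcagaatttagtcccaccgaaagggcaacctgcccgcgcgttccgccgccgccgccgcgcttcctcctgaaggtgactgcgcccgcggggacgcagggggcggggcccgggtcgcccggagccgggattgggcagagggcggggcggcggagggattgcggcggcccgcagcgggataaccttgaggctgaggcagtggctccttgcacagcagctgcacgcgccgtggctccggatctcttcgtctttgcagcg
LDHA, chr11:18394313-18394612, plus strand: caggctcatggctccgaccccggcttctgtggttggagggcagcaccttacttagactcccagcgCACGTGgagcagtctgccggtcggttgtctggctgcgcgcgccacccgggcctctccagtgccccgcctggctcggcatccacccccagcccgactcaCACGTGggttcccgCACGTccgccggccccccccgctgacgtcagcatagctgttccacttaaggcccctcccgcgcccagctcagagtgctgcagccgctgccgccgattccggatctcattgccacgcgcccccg
SLC16A3, chr17:82228792-82229091, plus strand: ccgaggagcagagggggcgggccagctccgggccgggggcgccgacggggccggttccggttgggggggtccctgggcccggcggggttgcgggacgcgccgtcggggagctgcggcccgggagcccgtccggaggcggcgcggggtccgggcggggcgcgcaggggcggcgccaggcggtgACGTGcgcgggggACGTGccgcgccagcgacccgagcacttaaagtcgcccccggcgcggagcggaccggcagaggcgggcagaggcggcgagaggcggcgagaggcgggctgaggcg
The HK2 window held the E-box CACGTG at 2 places, beginning at -194 and -149 from its start, and both lay inside the H3K27ac region. LDHA also held 2, at -185 and -87, and a further ACGTG at -73. All of these lay upstream of the LDHA region, which began at -22 from that start and covered 24% of the window. SLC16A3 had ACGTG at -68 and -55 and PFKP had it at -139, without an E-box and inside the region in both genes. The single PKM window had neither CACGTG nor ACGTG. Over all 14 windows of the 5 genes, 2 held CACGTG and 5 held ACGTG, and of the 7 that touched a member's region, 2 held CACGTG and 4 held ACGTG. The share of all 34943 RefSeq windows with CACGTG was 7.23%, and with ACGTG it was 21.4%. In the 728 windows of other genes that touched a listed region, the shares were 12.0% and 29.4%. A match describes the letters in a window and does not show that a factor was bound.

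Other promoter letters were searched in the same windows on both strands. GGGCGG, the GC box, was found in 9 of the 14 windows, against 44.9% of all windows. Among the 7 that touched a member's region it was in 5, against 81.2% of the other windows touching a listed region. At LDHA it was found in the window outside the region alone. CCGGAAG, the core of sites for ETS factors, was found in 3 windows, 2 of PFKP inside its region and 1 of LDHA outside it. The share of windows with CCGGAAG was 10.2% in all and 11.8% of those touching another listed region. CCAAT was present in 1 window each of HK2 and PKM, neither of which touched the region, against 34.6% of all windows and 33.9% of those touching another listed region. TATAAA was in none of the 14, against 11.6% of all windows and 6.46% of those touching another listed region. The printed windows of HK2, PFKP, PKM, LDHA and SLC16A3 held 71.7%, 79.7%, 68%, 70% and 82.7% G and C. At PFKP and SLC16A3 the printed window, picked by its ACGTG matches, was also the richest in G and C. The windows not printed but wholly inside these regions held 71.7% and 65.3% at PFKP and 70% at SLC16A3. The median was 58.7% over all windows and 70.7% in the windows of other genes that touched a listed region.

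The first step of the pathway was represented by HK2, the inducible hexokinase that binds the outer mitochondrial membrane. Its region (chr2:74834229-74835736, hg38, 1508 bp) had -0.91 for KMS-11, -0.46 for KMS-12 and -0.84 for RPMI8226 in the authors' deposited table. On the log2 reading this is 46.8%, 27.4% and 44.0% less H3K27ac after JQ1 in the same order of lines. HK2 was thus past -0.5 in KMS-11 and RPMI8226, with KMS-12 just short of it. In RPMI8226, 13.4% of the 838 regions had a lower value, and in KMS-12 80.1% did.

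PFKP, the platelet-type subunit of phosphofructokinase, showed another order of lines. The authors' deposited table gave its region (chr10:3067664-3069525, 1862 bp) -0.21 for KMS-11, -0.86 for KMS-12 and -0.61 for RPMI8226, or 13.7%, 44.7% and 34.6% less signal. KMS-11 was the line short of -0.5, and 93.8% of all regions had a lower value there.

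PKM encodes the pyruvate kinase isoforms M1 and M2, which share the promoter and differ by alternative splicing. Its region (chr15:72229201-72231114, 1914 bp) had -0.34 for KMS-11, -0.73 for KMS-12 and -0.82 for RPMI8226 in the authors' deposited table, or 20.9%, 39.9% and 43.4% less signal. As at PFKP, KMS-11 was not past -0.5 and both other lines were. RPMI8226 had the lowest of the 3 PKM values, and 14.9% of all regions were lower than PKM in that line.

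LDHA, the lactate dehydrogenase subunit that favours lactate formation, had the lowest single value among the 5 genes. The authors' deposited table listed -0.66 for KMS-11, -0.45 for KMS-12 and -1.14 for RPMI8226 for its region (chr11:18394541-18395667, 1127 bp). This corresponds to 36.8%, 26.6% and 54.7% less signal. In RPMI8226 the LDHA region ranked 14th lowest of 838, while in KMS-12 81.3% of regions were lower. The gap between its highest and lowest line, 0.70 on the log2 scale, was the widest among the 5 genes, and the median gap over all 838 regions was 0.52.

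SLC16A3 encodes MCT4, the monocarboxylate transporter of cells that export much lactate. Its region (chr17:82227964-82229544, 1581 bp) had -0.79 for KMS-11, -0.85 for KMS-12 and -0.70 for RPMI8226 in the authors' deposited table, or 42.2%, 44.6% and 38.6% less signal. It was the only one of the 5 past -0.5 in all 3 lines. The gap between its highest and lowest line was 0.15, the 47th smallest of 838. Its mean over the 3 lines was -0.78, with LDHA at -0.75, HK2 at -0.74, PKM at -0.63 and PFKP at -0.56. The order of these means changed when a line was left out: without KMS-12 LDHA had -0.90 and HK2 -0.87, against -0.75 at SLC16A3.

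**Figure D1:**
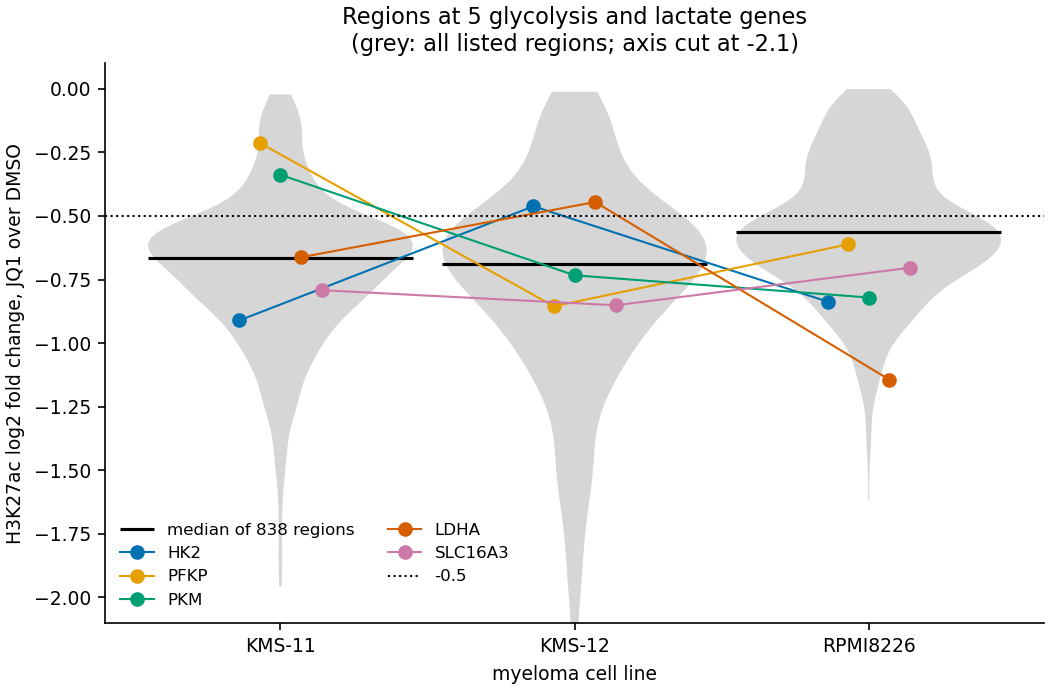
H3K27ac log2 fold change of JQ1 over DMSO (vertical axis) in each myeloma line (horizontal axis) for the regions of HK2, PFKP, PKM, LDHA and SLC16A3, with a line joining the values of one gene. Grey shapes show all 838 regions, black bars their medians and the dotted line -0.5; 10 regions have a value below the axis limit of -2.1. All 5 genes are below -0.5 in RPMI8226, PFKP and PKM are above it in KMS-11, and HK2 and LDHA are above it in KMS-12.

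The 5 regions fell into 3 sets by the lines past -0.5. HK2 and LDHA passed in KMS-11 and RPMI8226 alone, as did 22.3% of all listed regions, and PFKP and PKM in KMS-12 and RPMI8226 alone, as did 16.6%. SLC16A3 passed in all 3. RPMI8226 was past -0.5 at 5 of 5 genes, against 64.3% of all listed regions. KMS-11 was past it at 3 of 5 genes, against 83.4%, and KMS-12 at 3 of 5, against 77.7%. One of 5 was past it in all 3 lines, against 25.4%. No listed region of the 5 genes was of the kind shared by KMS-11 and KMS-12 alone, the most common kind in the table with 35.7% of regions. Past -0.75 there were 3 of 5 genes in RPMI8226 (HK2, PKM and LDHA), against 20.9% of all regions, 2 in KMS-11 (HK2 and SLC16A3), against 37.7%, and 2 in KMS-12 (PFKP and SLC16A3), against 42.1%. None of the 5 was past -0.75 in all 3 lines, against 3.94% of regions. Only LDHA in RPMI8226 was past -1, against 4.42% of regions in that line. These shares come from the values by which the genes were chosen and are given as counts alone. The members nearest to -0.5 were HK2 and LDHA in KMS-12, with -0.46 and -0.45 in the authors' deposited table, on the outer side. On the inner side the nearest was PFKP in RPMI8226, with -0.61 in the authors' deposited table.

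The medians were also set side by side. In RPMI8226 the median over the 5 regions was -0.82, against -0.56 over all 838 in the authors' deposited table, and each of the 5 was below the median of all regions. In KMS-11 the medians were -0.66 for the 5 genes and -0.66 for all regions, and in KMS-12 -0.73 and -0.69, in the authors' deposited table. RPMI8226 had the lowest of the 3 values at PKM and LDHA, whereas in the full list it was the lowest line in 21.6% of regions. KMS-12 was lowest at PFKP and SLC16A3, against 44.6% of all regions, and KMS-11 at HK2, against 33.8%. If RPMI8226 is set aside, 1 of the 5 genes, SLC16A3, was past -0.5 in both lines that remain, compared with 61.1% of all regions. Without KMS-11 there were 3 of 5 (PFKP, PKM and SLC16A3), compared with 42%, and without KMS-12 also 3 of 5 (HK2, LDHA and SLC16A3), compared with 47.7%. These counts restate the 3 sets of lines given above and add no separate result. The medians too come from the values by which the genes were chosen, so that a difference between lines was not tested.

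**Figure D2:**
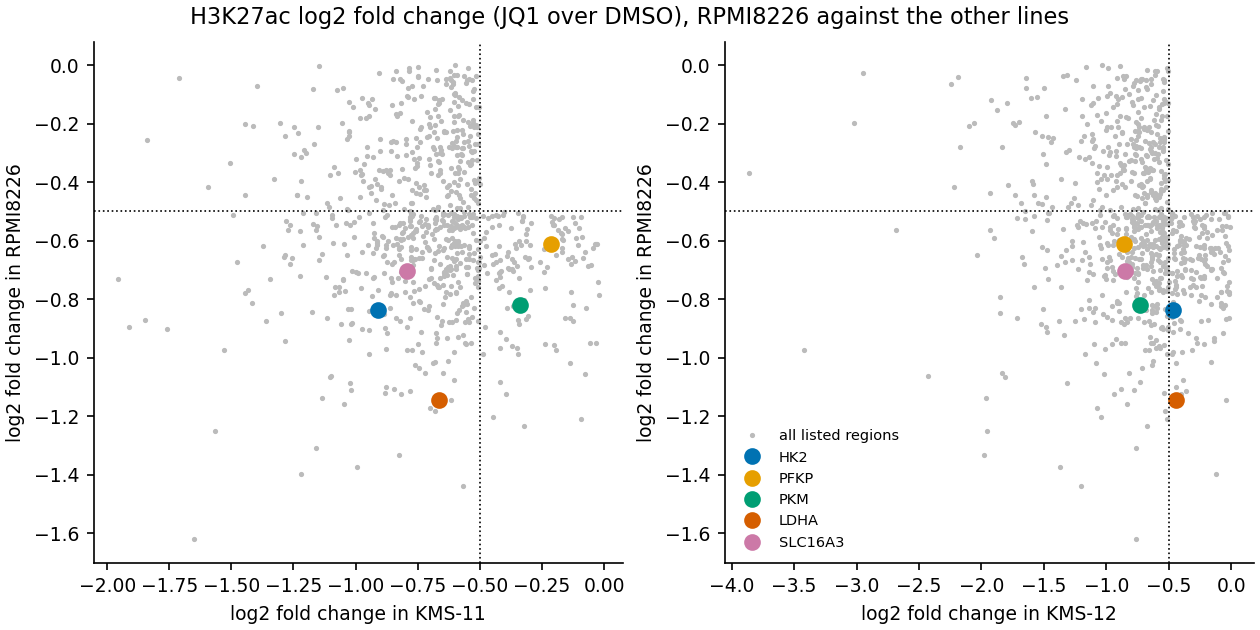
H3K27ac log2 fold change in RPMI8226 (vertical axes) against KMS-11 (left) and KMS-12 (right), JQ1 over DMSO, with grey points for all 838 listed regions, coloured points for the 5 genes and dotted lines at -0.5. LDHA lies lowest of the 5 in RPMI8226 at -1.14, PFKP and PKM sit to the right of the dotted line in KMS-11, and HK2 and LDHA to the right of it in KMS-12.

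Distances between the 3-value profiles put PFKP and PKM closest to each other, at 0.27 on the log2 scale (Euclidean distance over the 3 lines). HK2 and LDHA were 0.40 apart, and HK2 and SLC16A3 0.43. HK2 and PFKP were farthest apart, at 0.83. Within the list, 48 other regions were nearer to PFKP than PKM was, and 159 were nearer to HK2 than LDHA was. The 3 regions most like each gene were also found by this distance. For HK2 they were at CDK5R1, ID2 and the lncRNA gene LOC105370680, the closest at a distance of 0.087. For PFKP they were at RTN3, NAMPT and PPP6R1, the closest at 0.082. The nearest, RTN3, had -0.23 for KMS-11, -0.88 for KMS-12 and -0.69 for RPMI8226 in the authors' deposited table. NAMPT, which encodes the rate-limiting enzyme of NAD salvage, was second, with -0.26, -0.82 and -0.67 in the same order of lines. A shared function among the regions most like the members was not tested. For PKM they were at MGAT2 with RPL36AL, at ZNF664 with ZNF664-RFLNA, and at CDR2-DT, the closest at 0.098. For LDHA they were at EPOP, ZNF800 and JUND, the closest at 0.092. For SLC16A3 they were at PGRMC1, RPL36 and PPP1R13B with PPP1R13B-DT, the closest at 0.088. All regions share the same 6 libraries, and these distances are a description.

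A property outside the fold changes was where the regions lay. Each ran from near the most upstream start listed for its gene into the transcribed part. Measured from that start, the HK2 region ran from 102 to 1609 bp downstream and also held the second of the 2 HK2 starts. The PKM region ran from 76 to 1989 bp downstream, so that the only listed PKM start lay just outside it and its promoter window lay 27 bp from the region. The LDHA region ran from -22 to 1104 bp and held 1 of 2 starts. PFKP was covered from -306 to 1555 bp, with 3 of its 4 starts inside, and SLC16A3 from -471 to 1109 bp, with 2 of its 5 starts inside. The promoter window of the last PFKP start lay 34834 bp beyond the region. The annotated SLC16A3 gene begins 10030 bp before its region, and the promoter table has no start there. The annotated PFKP and PKM genes also begin upstream of their first listed start, 116 and 477 bp before their regions. For these 3 genes the distances depend on which starts are listed.

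Of the 5 regions, 4 lay wholly inside the annotated gene, and LDHA had 22 bp outside it. All 5 reached farther downstream than upstream of the most upstream start. Among all 531 protein coding genes with an overlapping region within 500 bp of that start, 81.0% did so, and the median region ran from -124 to 915 bp. The corresponding medians of the 5 genes were -22 and 1555 bp. With 4 of 5 members holding a start of their own, the background was 47.7% of all listed regions holding any annotated start. That background also counts regions that overlap no gene, while all 5 members overlap a protein coding gene. The shares are therefore not like for like. The region widths of 1127 to 1914 bp had a median of 1581 bp, against 1165 bp over all 838 regions. PKM was wider than 88.8% of them and LDHA wider than 46.8%.

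**Figure D3:**
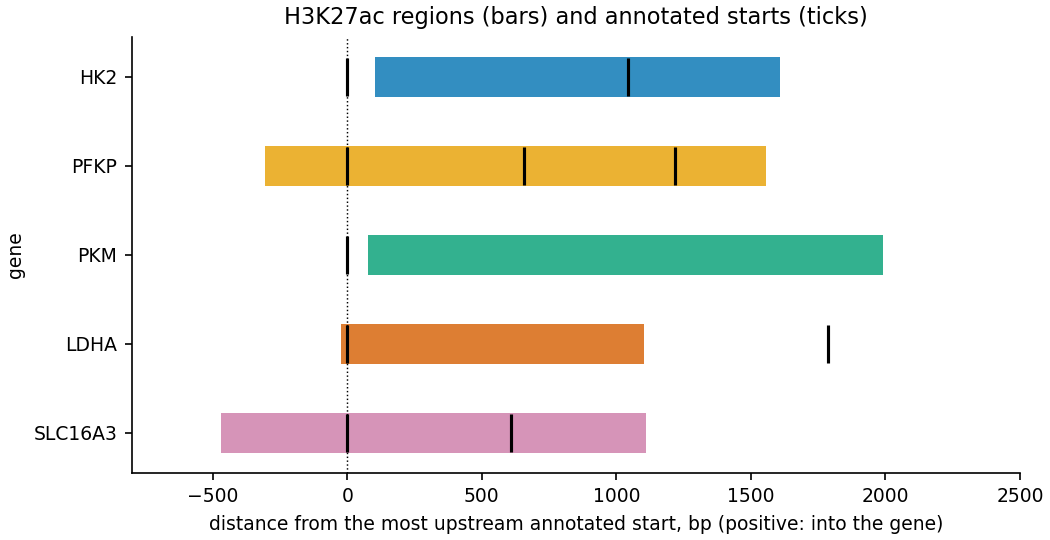
H3K27ac regions (bars) of HK2, PFKP, PKM, LDHA and SLC16A3 by distance in bp from the most upstream annotated start of each gene (horizontal axis, positive into the gene), with ticks for annotated starts within the plotted range. The regions end 1104 to 1989 bp downstream of that start, and those of HK2 and PKM begin 102 and 76 bp after it.

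The listed regions next to those of the 5 genes on the chromosome were also found. The closest one to any member was at FASN, the fatty acid synthase gene, 128 kb from the SLC16A3 region, with -1.15 for KMS-11, -0.81 for KMS-12 and -0.59 for RPMI8226 in the authors' deposited table. On its other side the next was at WDR45B, 418 kb away. For PKM the next listed regions were at NEO1, 820 kb away, and RAB11A, 6.36 Mb away. For HK2 they were at TET3, 849 kb away, and LINC03052, 20.7 Mb away. For LDHA they were at PDE3B and LOC102723575, 3.49 and 41.2 Mb away, and for PFKP at ANKRD16 with FBH1, 2.82 Mb away. The value at each of the 5 genes thus rests on a single region.

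The rest of the pathway was taken from 10 lists of textbook genes, chosen with earlier results of these data known. All 98 genes were annotated, and 14 had a listed region. Of the 93 genes other than the 5 members, 9 did (9.68%), against 4.11% of all protein coding genes, and 2 of the 9 were past -0.5 in all 3 lines, against 26.8% of the protein coding genes with a region. Because of how the lists were chosen, these shares are given as counts alone. Genes silent in these lines could not be set apart from the rest. The other genes in the lists that hold the 5 members had no listed region, with 1 exception. Related genes outside the lists were not looked up. In the separate list for glucose import, none of the 6 genes had one. HK2 was the only one of 6 in the hexokinase list and PFKP the only one of 13 in upper glycolysis. PKM was the only one of 12 in lower glycolysis and LDHA the only one of 6 lactate dehydrogenase genes. The 13 genes of pyruvate entry into mitochondria had none. Whether a gene without a listed region lacked H3K27ac, kept it or missed the filter cannot be read from the table.

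Among pathway genes without a region were SLC2A1, the widely expressed glucose transporter, GAPDH, PGK1 and ENO1 of lower glycolysis, and LDHB, the other main lactate dehydrogenase subunit. The nearest listed region was 158 kb from SLC2A1, 228 kb from GAPDH and 660 kb from ENO1. It was 3.43 Mb from SLC16A1, which encodes the transporter MCT1, and 38.6 kb from BSG, the chaperone that brings MCT1 and MCT4 to the membrane. MYC, the oncogene known to respond to BET inhibition in myeloma, had its nearest listed region 3.36 Mb away.

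The exception was SLC16A7, which encodes MCT2, a monocarboxylate transporter of high affinity. Its region (chr12:59595994-59597318) had -0.70 for KMS-11, -1.49 for KMS-12 and -0.69 for RPMI8226 in the authors' deposited table. Both transporter genes with a region were thus past -0.5 in all 3 lines, as were 25.4% of all listed regions. SLC16A7 had the lower value of the pair in KMS-12. The other 4 of the 6 lactate transport genes had no listed region. PCK2, the mitochondrial enzyme that makes phosphoenolpyruvate, was also past -0.5 in all 3 lines, with -0.68, -1.65 and -0.53 in the same order of lines in the authors' deposited table. Its region also overlapped NRL, and the signal cannot be divided between the genes.

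Genes of the glycogen branch included PYGB, the brain-type glycogen phosphorylase that releases glucose units. It had -0.88 for KMS-11, -0.44 for KMS-12 and -1.10 for RPMI8226 in the authors' deposited table, with KMS-12 short of -0.5 as at HK2 and LDHA. PGM1, which converts glucose phosphates between glycogen and glycolysis, had -0.66, -0.70 and -0.37, and the related PGM2 had -0.17, -0.54 and -0.52, in the authors' deposited table.

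Of 17 regulators, 4 had a region (23.5%, against 4.11% of all protein coding genes), each past -0.5 in 2 lines, as were 74.6% of all listed regions. This list too was chosen with earlier results of these data known, so the shares are given as counts alone. HIF1A, the oxygen-sensitive factor that induces glycolytic genes, had -0.34 for KMS-11, -0.57 for KMS-12 and -0.73 for RPMI8226 in the authors' deposited table, and its region also overlapped the antisense gene HIF1A-AS1. VHL, which marks HIF1A protein for degradation, had -0.17, -1.17 and -0.64 in the authors' deposited table. Both were short of -0.5 in KMS-11, as were PFKP, PKM, PGM2 and MXI1, and 16.6% of all listed regions. The MYC antagonist MXI1 had -0.23, -1.28 and -0.60, and MNT, whose region lay 260 bp outside the gene, had -0.61, -0.47 and -0.56, in the authors' deposited table. Over the 9 genes other than the members, 8 were past -0.5 in RPMI8226, 7 in KMS-12 and 5 in KMS-11, against the shares of all regions given above. The mean over the lines had a median of -0.74 over the 5 members, -0.66 over these 9 genes and -0.63 over all 838 regions in the authors' deposited table.

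**Figure D4:**
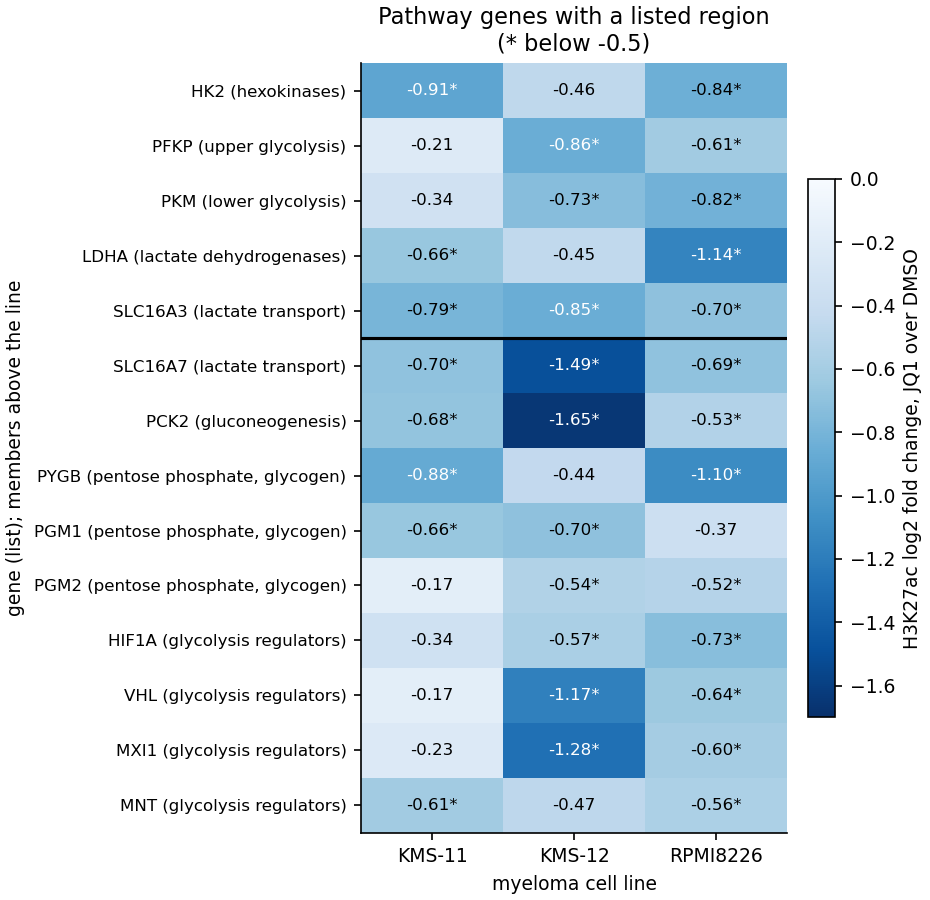
H3K27ac log2 fold change of JQ1 over DMSO for the 14 genes of the 10 pathway lists with a listed region (rows, list in brackets) in each myeloma line (columns), shaded by value, with the 5 members above the black line and an asterisk for values below -0.5. SLC16A3, SLC16A7 and PCK2 carry an asterisk in all 3 lines, and the lowest value shown is -1.65 at PCK2 in KMS-12.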

How the data were processed

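H3K27ac was profiled by chromatin immunoprecipitation and sequencing in KMS-11, KMS-12 and RPMI8226, with 1 JQ1 and 1 DMSO sample per line, per the labels. The authors deposited 1 table of 838 regions with a log fold change per line and, as another value, the number of lines in common (2 or 3), per the file headers. Neither the base nor the numerator is written there, and the deposited values were read as log2 of JQ1 over DMSO. DESeq2, MACS2, hg38 and GRCh38.p13 are named, without a role, per the submitters' processing notes. The scaling between libraries, the aligner and the peak settings were not given in the sources used here. A change of the whole signal in a line cannot be told apart from its scaling.

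Regions were placed on 20050 protein coding genes and the lncRNA genes in RefSeq's annotation of GRCh38.p14, which shares its chromosome coordinates with hg38. A region was given to every gene it overlapped, or else to the gene with the nearest boundary. Widths count both end positions. Ranks, medians, Euclidean distances and motif matches were computed with Python 3.11.15, pandas 2.3.3 and numpy 2.4.6. The assignment and the motif search were tested on simulated data.

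The members and lists were chosen with earlier results of these data known. No test was made, since the genes were chosen from the values shown and no line had a replicate. Genes were named if they were members, if they were pathway genes with a region, or if their region was 1 of the 3 most like a member's or the next on its chromosome. Further pathway genes without a region (SLC2A1, GAPDH, PGK1, ENO1, LDHB, SLC16A1, BSG and MYC) were named after the results were seen.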

Additional observations from a re-analysis of the deposited data

How the results depend on the processing

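No paired analysis was possible because the table holds 1 fold change per line, which already sets JQ1 against DMSO, and no value of a single sample. Leaving out KMS-11, KMS-12 or RPMI8226 in turn, the mean log2 fold change ranged from -0.87 to -0.65 at HK2, -0.73 to -0.41 at PFKP, -0.78 to -0.54 at PKM, -0.90 to -0.55 at LDHA and -0.82 to -0.75 at SLC16A3. The order of the 5 genes changed. Without KMS-12 LDHA (-0.90) and HK2 (-0.87) were lower than SLC16A3 (-0.75), and without KMS-11 LDHA (-0.79) was lower than SLC16A3 (-0.78) and HK2 (-0.65) was nearest to 0. The median over the lines was -0.84 at HK2, -0.79 at SLC16A3, -0.73 at PKM, -0.66 at LDHA and -0.61 at PFKP. Assigning every gene within 1 kb, or overlapping genes alone, left 5 members with a region. The pathway lists had 14 genes with a region at 1 kb and 13 by overlap alone, without MNT. Past a stricter threshold of -0.75 or of -1 in all 3 lines there were 0 of the 5 members and 0 pathway genes, against 1 and 3 at -0.5, and 3.94% and 0.597% of all regions. With each line centred on its median over the list, the mean was -0.14 at SLC16A3, -0.11 at LDHA, -0.10 at HK2, 0.0079 at PKM and 0.079 at PFKP. After scaling each line by its SD, 2 of the 3 regions most like HK2, PFKP, PKM and LDHA were kept, and 3 of 3 for SLC16A3. Depth and the error of a fold change are unknown.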
